A study of Mus musculus with 6 samples.

Results

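The cyclin-dependent kinase inhibitors were followed in mouse cells sorted as regulatory T cells (Treg), a CD4 lineage defined by Foxp3 that holds immune responses in check. The 7 genes are the Cip/Kip inhibitors Cdkn1a (p21), Cdkn1b (p27) and Cdkn1c (p57), and the Ink4 inhibitors Cdkn2a (p16 and Arf), Cdkn2b (p15), Cdkn2c (p18) and Cdkn2d (p19). They were taken as every probe set annotated with 1 of these symbols alone, which gave 9 of 22626 probe sets that are not array controls: 2 each for Cdkn1a and Cdkn1b and 1 for each other gene.

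RNA from cells sorted as CD4+YFP+ was read on 6 single-channel arrays, 3 per group, after amplification of 100 ng of total RNA. The USP7-titled arrays belong, by the series text, to mice with floxed Usp7 deleted by Foxp3cre, whereas the genotype field of the same arrays reads fl-HDAC11/Foxp3cre. The control arrays are titled B6_WT and carry the genotype Foxp3cre, so both groups carry the Cre and both are of C57BL/6 background. Foxp3cre expresses the recombinase in Foxp3-positive cells, so deletion is directed at Treg. The labels give no age and do not tie samples to animals, so every p-value here reflects only sample-to-sample spread, which may be technical. Usp7 encodes a deubiquitinase whose known substrates include Mdm2 and p53.

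The labels were checked in the same arrays. Usp7 read 10.54, 10.69 and 10.76 in USP7-titled arrays, against 11.69, 11.73 and 11.61 in control arrays, on the log2 scale of the deposited values. Its change was -1.01 (limma adjusted p = 2.04e-06). Hdac11 was dim and changed by -0.58 (limma adjusted p = 0.019), with its other probe set at -0.22. That call was lost when arrays were scaled to their hybridization spikes (adjusted p = 0.0539), with the mean of probe sets per gene (-0.40, adjusted p = 0.0583) and without USP7-titled replicate 2 (adjusted p = 0.0645) or control replicate 1 (adjusted p = 0.0878). Foxp3 read 6.85 to 7.29 in USP7-titled arrays and 12.82 to 13.13 in control arrays, while Cd4 averaged 12.83 in USP7-titled arrays and 12.82 in control arrays. The low Foxp3 signal, read by 1 probe set, goes against the name Treg for the USP7-titled arrays by this marker, and its cause was not tested. Other Treg markers were bright in both groups, if lower in USP7-titled arrays. Il2ra averaged 12.68 in USP7-titled and 12.85 in control arrays, Ctla4 12.17 and 12.53, and Ikzf2 10.84 and 11.05. Xist read 4.63 to 5.65 in USP7-titled arrays and 12.43 to 12.54 in control arrays, and the Y-linked Eif2s3y read 10.09 to 10.19 in USP7-titled arrays and 3.99 to 5.25 in control arrays. The sex pattern runs with the groups, and for each result below the pair cannot be told apart. Of RNA quality, the Gapdh 3′ minus 5′ signal was 0.907 to 0.986 in USP7-titled arrays and 0.989 to 1.23 in control arrays, so it too ran with the groups, and its part in the results was not tested. In sorted bulk samples a change in the cells present and a change in RNA per cell cannot be told apart either.

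As background, progress from G1 into S phase and on into mitosis is driven by cyclin-dependent kinases (CDKs) bound to cyclins. Ink4 proteins bind CDK4 and CDK6 and keep the D cyclins off them, while Cip/Kip proteins bind assembled complexes and block CDK2 in particular. Cdkn1a is the best known transcriptional target of p53, Cdkn1b is abundant in resting T cells and is removed by ubiquitination as they enter the cycle, and Cdkn2c and Cdkn2d are the Ink4 members usually found in lymphocytes.

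Because Cdkn1a moved most and Cdkn1b moved the other way, the bases before their annotated starts are shown beside those of Cdkn2c and Cdkn2d, the other inhibitors that changed. The RefSeq promoter table (build GRCm38.p6) matched 6 of the 7 genes with 9 windows, and 250 bases before each start are used. Capitals mark the p53 full site in the window of the upstream Cdkn1a start, and the GC box GGGCGG on either strand in the others.
Cdkn1a upstream start, chr17:29090729-29090978, plus strand: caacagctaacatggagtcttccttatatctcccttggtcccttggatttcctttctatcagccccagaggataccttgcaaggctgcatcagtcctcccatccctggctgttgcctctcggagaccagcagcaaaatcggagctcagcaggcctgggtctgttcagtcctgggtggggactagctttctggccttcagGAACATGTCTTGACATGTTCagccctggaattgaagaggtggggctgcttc
Cdkn1a downstream start, chr17:29093519-29093768, plus strand: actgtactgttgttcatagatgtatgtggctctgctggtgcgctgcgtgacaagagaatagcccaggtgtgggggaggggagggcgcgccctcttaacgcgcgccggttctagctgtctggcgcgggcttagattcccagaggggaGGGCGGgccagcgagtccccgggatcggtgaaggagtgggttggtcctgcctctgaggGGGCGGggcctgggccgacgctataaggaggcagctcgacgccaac
Cdkn1b, chr6:134920151-134920400, plus strand: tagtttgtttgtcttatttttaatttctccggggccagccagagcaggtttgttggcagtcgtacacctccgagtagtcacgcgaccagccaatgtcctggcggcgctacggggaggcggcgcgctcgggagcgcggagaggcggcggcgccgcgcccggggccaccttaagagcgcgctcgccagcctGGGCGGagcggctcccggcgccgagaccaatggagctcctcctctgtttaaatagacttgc
Cdkn2c upstream start, chr4:109666757-109667006, minus strand: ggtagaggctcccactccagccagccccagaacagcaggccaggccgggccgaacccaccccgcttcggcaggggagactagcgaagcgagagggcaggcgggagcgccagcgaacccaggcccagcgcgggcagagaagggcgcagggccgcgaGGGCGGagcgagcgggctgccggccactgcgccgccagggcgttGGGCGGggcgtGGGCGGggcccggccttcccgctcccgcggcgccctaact
Cdkn2d, chr9:21291210-21291459, minus strand: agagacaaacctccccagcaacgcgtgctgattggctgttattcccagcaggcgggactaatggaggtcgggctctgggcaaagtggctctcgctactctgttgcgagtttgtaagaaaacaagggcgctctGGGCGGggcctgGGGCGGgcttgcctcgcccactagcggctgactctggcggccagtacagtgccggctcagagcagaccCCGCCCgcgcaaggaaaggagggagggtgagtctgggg

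The upstream Cdkn1a start lies 2790 bases before the downstream one. Its window held the letters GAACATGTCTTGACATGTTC at chr17:29090928-29090947, from 51 to 32 bases before that start. These are 2 adjoining p53 half-sites with both core motifs intact and 1 base off the consensus, a tolerance set after the window was seen. Such a site stood in 15 of 32851 windows (0.0457%), and Cdkn1a was the only inhibitor among the 6 matched that held one. With no mismatch allowed 3 windows held one, and Cdkn1a was not among them. A p53 half-site on its own was common, in 7.13% of windows, and 1 also stood in the Cdkn2d window. Of the genes whose windows held the full site 5 were measured. Cdkn1a (4.62, SE 0.11), the p53 target Rps27l (1.14, SE 0.07) and Calhm2 (0.53, SE 0.11) were higher, Sptbn4 was lower (-0.59, SE 0.15), and Cldn16 did not pass (-0.30, SE 0.16). Over all 9882 measured genes with a window, 17.2% were higher and 15.9% lower. Because the tolerance was set after the Cdkn1a window was seen and Cdkn1a is 1 of the 5, the shares and values are only a description. A match of letters is neither a bound site nor a cause.

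GGGCGG, the GC box bound by Sp1-type factors, stood in 32.7% of all windows and in 5 of the 9 windows of the inhibitors. There were 3 matches each in the Cdkn2d and upstream Cdkn2c windows, 2 each in the downstream Cdkn1a window and 1 Cdkn2a window, and 1 in Cdkn1b. The E2F letters TTTGGCGC (0.417% of windows) and TTTCGCGC (0.256%) and the forkhead letters GTAAACA (3.17%), searched on both strands, were not in these 9 windows. TTTGAA, a letter run found in promoters of mitotic genes, was in 16% of windows and in that of Cdkn2b.

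**Figure D1:**
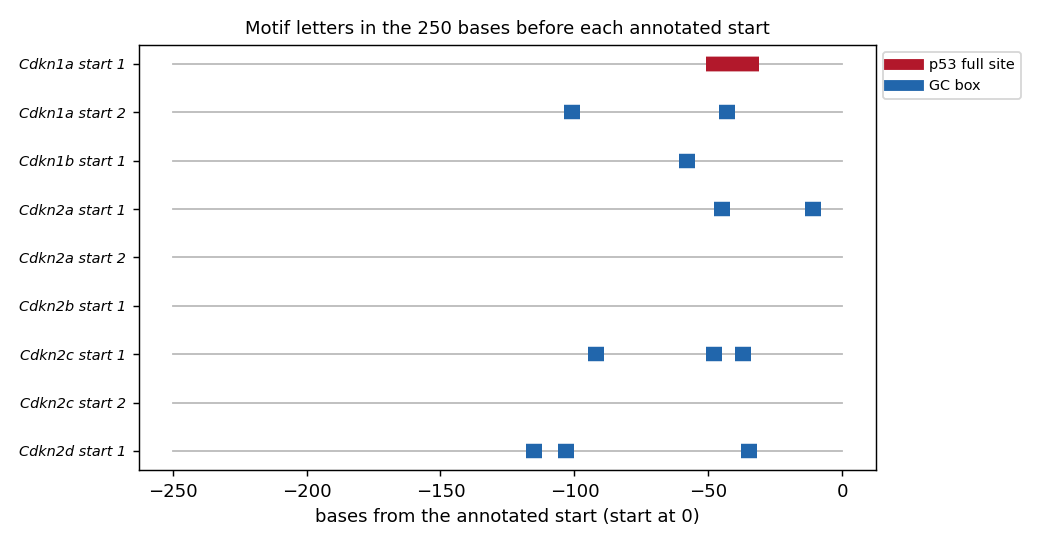
Position of motif letters in the 250 bases before each annotated start of the 6 matched inhibitors, in bases from the start at 0, with 1 line per start and blocks for the p53 full site and the GC box. The p53 block lies 51 to 32 bases before the upstream Cdkn1a start, and the other 8 windows have none.

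Across the family, 4 of the 9 probe sets were higher in USP7-titled arrays, 2 were lower and 3 did not pass (limma adjusted p under 0.05 over all probe sets). Over all 22626 probe sets 16.2% were higher and 17.1% lower. In 6 of the 9 inhibitor probe sets the groups did not overlap, against 45.7% of all probe sets. Counted by gene, Cdkn1a, Cdkn2c and Cdkn2d rose, Cdkn1b fell, and Cdkn1c, Cdkn2a and Cdkn2b did not pass. The 5 Cip/Kip probe sets had a median change of 0.26, with 2 higher and 2 lower, and the 4 Ink4 probe sets a median of 0.54, with 2 higher. The median of all probe sets was -0.06.

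**Figure D2:**
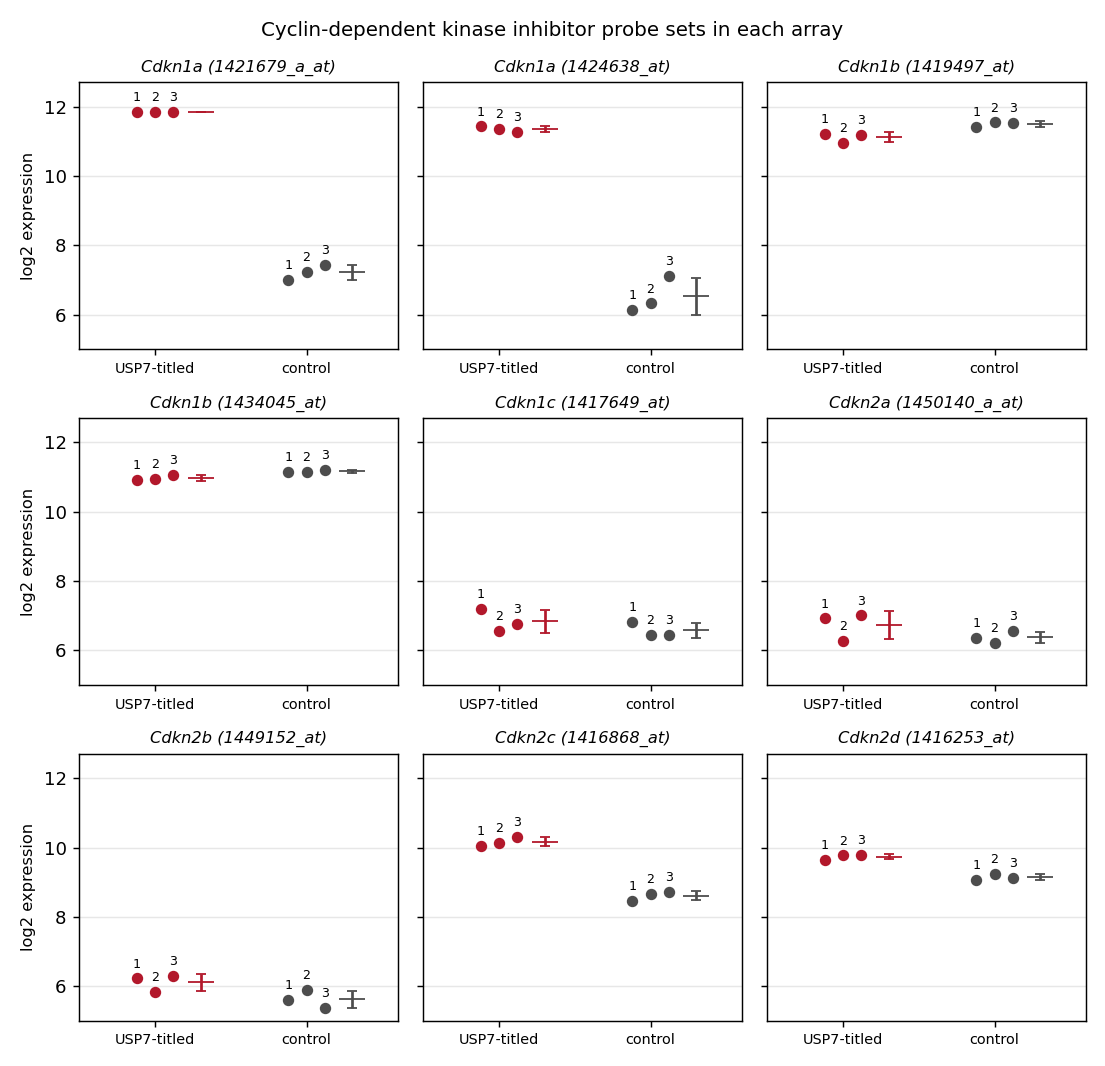
Log2 expression of the 9 inhibitor probe sets in each array, USP7-titled beside control, with replicate numbers at the points and the mean and SD (n = 3) at their right. Both Cdkn1a panels show a gap of more than 4 between the groups, from 11.26 upward in USP7-titled arrays and up to 7.43 in control arrays, whereas the Cdkn1c, Cdkn2a and Cdkn2b panels overlap.

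Cdkn1a, which encodes p21, rose by 4.62 on the log2 scale, or 24.6-fold between the deposited values. The control signal was not shown to be above background, since the files hold no detection calls, so the fold is that of the signals only. Its brighter probe set read 11.84, 11.86 and 11.84 in USP7-titled arrays, against 7.001, 7.23 and 7.43 in control arrays. The USP7-titled arrays were nearly identical and all far above the highest control array. The means were 11.84 ± 0.01 in USP7-titled arrays and 7.22 ± 0.21 in control arrays (SD, n = 3 each). That is a change of 4.62 (SE 0.11, 95% interval 4.37 to 4.87, limma adjusted p = 2.07e-09). The gap between the lowest USP7-titled and the highest control array was 4.41. The second probe set read 11.43, 11.37 and 11.26 in USP7-titled arrays and 6.13, 6.32 and 7.11 in control arrays. Here control replicate 3 stood above the other control arrays, and the groups were still 4.15 apart. Its change was 4.83 (SE 0.21, 95% interval 4.37 to 5.30, limma adjusted p = 8.72e-08).

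Among 22626 probe sets the Cdkn1a pair took places 5 and 6 in order of rise. Probe sets differ in how brightly they answer, so levels describe only the place on the array: the brighter Cdkn1a probe set stood at the 95.8th percentile of USP7-titled means and at the 39.6th percentile of control means. The second stood at the 93.5th percentile in USP7-titled arrays and the 29.6th in control arrays. The two-sided exact permutation p was 0.1 for each, the smallest that 3 against 3 arrays allow. Under 18 other settings the brighter probe set changed by 4.51 to 4.78, and it passed the threshold in each.

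Cdkn1b, which encodes p27, was bright in both groups and slightly lower in USP7-titled arrays. Its brighter probe set read 11.21, 10.95 and 11.19 in USP7-titled arrays, against 11.41, 11.54 and 11.54 in control arrays. Every USP7-titled array was below every control array, by a gap of 0.20. The change was -0.38 (SE 0.08, 95% interval -0.55 to -0.21, limma adjusted p = 0.00298), which left 76.7% of the control level. The other probe set read 10.91, 10.95 and 11.06 in USP7-titled arrays and 11.15, 11.14 and 11.20 in control arrays. It changed by -0.19 (SE 0.06, limma adjusted p = 0.0355). Scaled to the hybridization spikes, neither passed: the changes were -0.22 (limma adjusted p = 0.086) and -0.03 (limma adjusted p = 0.832). The call of the dimmer probe set was also lost when any array except USP7-titled replicate 3 was left out, with adjusted p of 0.0703 to 0.099.

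Cdkn1c, the imprinted gene of p57, was dim and did not pass. It read 7.19, 6.56 and 6.76 in USP7-titled arrays and 6.83, 6.44 and 6.46 in control arrays. The groups overlapped, and the change of 0.26 had a 95% interval of -0.14 to 0.67 (limma adjusted p = 0.306).

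Of the Ink4 genes, Cdkn2c and Cdkn2d rose. Cdkn2c, which encodes p18, read 10.05, 10.14 and 10.32 in USP7-titled arrays, against 8.46, 8.67 and 8.72 in control arrays. All USP7-titled arrays were above all control arrays, by at least 1.33. The means were 10.17 ± 0.14 in USP7-titled arrays and 8.62 ± 0.14 in control arrays (SD, n = 3 each). The change was 1.55 (SE 0.11, 95% interval 1.31 to 1.79), or 2.93-fold (limma adjusted p = 2.59e-06). The change stayed between 1.47 and 1.71 under 18 other settings and passed in each. It took place 313 in order of rise among 22626 probe sets.

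Cdkn2d, which encodes the Ink4 protein p19, read 9.65, 9.77 and 9.79 in USP7-titled arrays and 9.08, 9.25 and 9.13 in control arrays. The groups were apart by 0.40. Its change was 0.59 (SE 0.09, 95% interval 0.38 to 0.80) or 1.5-fold (limma adjusted p = 0.000798). Cdkn2c and Cdkn2d stood at the 82.8th and 77.3rd percentile of USP7-titled means and the 59.9th and 68.8th percentile of control means.

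Cdkn2a and Cdkn2b, neighbours on chromosome 4, were dim in both groups and did not pass. A single probe set reports Cdkn2a, so its p16 and Arf transcripts were not told apart. Cdkn2a read 6.92, 6.28 and 7.01 in USP7-titled arrays and 6.36, 6.23 and 6.55 in control arrays. It changed by 0.36 (SE 0.19, 95% interval -0.07 to 0.79, limma adjusted p = 0.19). Its USP7-titled replicate 2 lay among the control arrays. Without that array the change was 0.59 (limma adjusted p = 0.0168). Cdkn2b, which encodes p15 and is known as a target of TGF-beta signalling, read 6.22, 5.82 and 6.29 in USP7-titled arrays and 5.61, 5.88 and 5.38 in control arrays. Only USP7-titled replicate 2 and control replicate 2 crossed.

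The Cdkn2b change of 0.49 (SE 0.17, 95% interval 0.10 to 0.87) fell just outside the threshold (limma adjusted p = 0.0515). It passed in 7 of 17 other settings, among them quantile normalization (adjusted p = 0.0235), spike scaling (0.65, adjusted p = 0.00987), and leaving out USP7-titled replicate 2 (adjusted p = 0.0201) or control replicate 2 (adjusted p = 0.0372). USP7-titled replicate 2 had the lowest reading of its group for Cdkn1c, Cdkn2a and Cdkn2b alike. These 3 probe sets stood between the 25.3rd and 35.1st percentile of USP7-titled means and between the 18.3rd and 30.3rd percentile of control means.

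**Figure D3:**
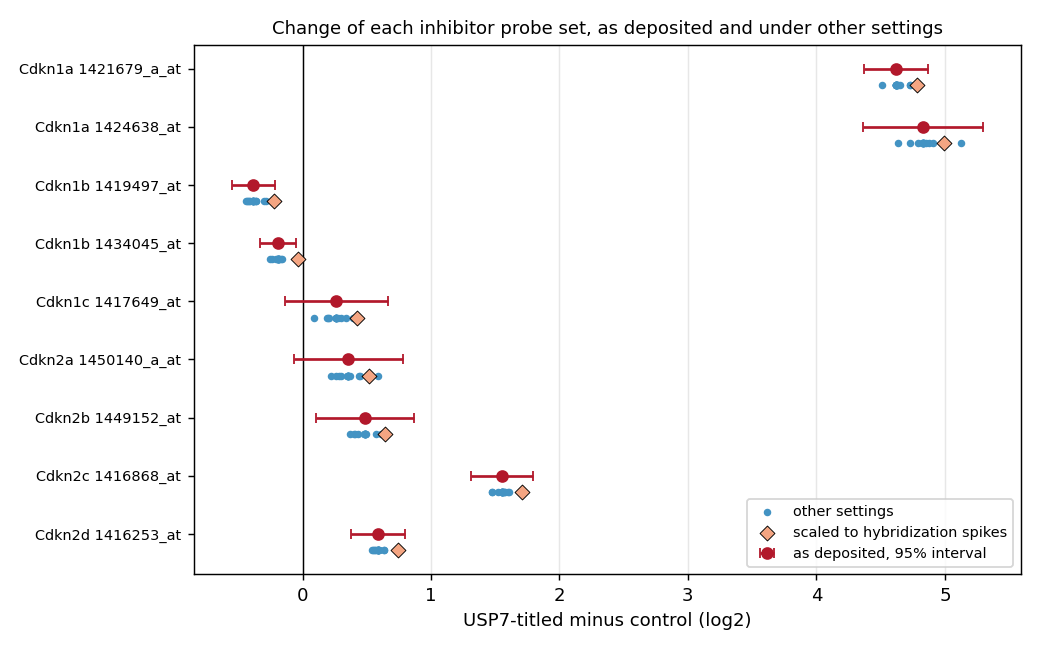
Change of each inhibitor probe set (USP7-titled minus control, log2) as deposited with its 95% interval, and under the other settings in the row of small points, with spike scaling as a diamond. Cdkn1a (4.62 and 4.83) and Cdkn2c (1.55) stand clear of 0 in every setting, and under spike scaling the Cdkn1b probe sets lie at -0.22 and -0.03.

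The Cdkn1a change was set against those of its relatives by the difference between its brighter probe set and that of each other inhibitor within an array. The Cdkn1a change exceeded that of Cdkn1b by 5.01 (SE 0.13), of Cdkn1c by 4.36 (SE 0.31), of Cdkn2a by 4.26 (SE 0.26), of Cdkn2b by 4.14 (SE 0.27), of Cdkn2d by 4.04 (SE 0.13) and of Cdkn2c by 3.07 (SE 0.10). In each of the 6 pairs all USP7-titled arrays had a higher difference than all control arrays. The two-sided exact permutation p was 0.1 in each, the smallest possible, and 0.1 after Benjamini-Hochberg adjustment over the 6 pairs, so this design cannot pass 0.05. The size of the Cdkn1a change in these same arrays all but fixed the separation, and the 6 pairs share its values. They are therefore only a description. Additive scaling of an array cancels in these differences.

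The genes with profiles most like that of Cdkn1a over the 6 arrays were found by the root mean square difference of profiles centred on their own mean, among the brightest probe sets of named genes. Psrc1, which encodes a spindle-associated protein and is known as a p53 target, differed least (0.16), followed by the chemokine Ccl8 (0.28), the steroid dehydrogenase Akr1c18 (0.50), the survivin gene Birc5 (0.50) and the mitotic checkpoint kinase gene Bub1 (0.52). They rose by 3.70 to 5.08. For Cdkn2c the 5 nearest were the lysosomal reductase Ifi30 (0.07), the metalloproteinase Adam8 (0.07), the interferon-induced Ifitm3 (0.08), the FK506-binding chaperone partner Fkbp5 (0.08) and the linker histone gene H1f4 (0.09), which rose by 1.49 to 1.62. With 2 groups this likeness mainly orders genes by the size of their change.

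Genes beside the inhibitors on their chromosomes were looked up in the reference gene table (assembly GRCm38.p6), up to 4 protein-coding genes on each side, a range set after values were seen. Around Cdkn1a on chromosome 17, 4 neighbours were measured and changed by -0.57 to 0.21. They included the splicing factor gene Srsf3 next to it (0.09) and Stk38 (-0.57, limma adjusted p = 9.06e-06), a kinase gene. Around Cdkn2c on chromosome 4, 4 were measured at -0.46 to 0.55, with the adjacent Faf1 at 0.55. Around Cdkn1b on chromosome 6, 5 were measured at -0.25 to 0.27. Around Cdkn2d on chromosome 9, 7 were measured at -0.47 to 0.24. The changes of Cdkn1a and Cdkn2c were larger than those of any measured neighbour. Both changes were known to be large before the neighbours were looked up, so no reading of the regions is drawn.

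The kinases and cyclins that the inhibitors act on changed as well. Of 8 G1 genes 6 were higher and 1 lower, with a median change of 0.64, against 16.9% higher and 15.6% lower over 12393 genes by their brightest probe set and a median of -0.05. Ccne1, the cyclin E1 partner of CDK2, rose by 1.56 (SE 0.14), to 9.93, 9.92 and 9.70 in USP7-titled arrays, against 7.99, 8.40 and 8.46 in control arrays. Ccne2 rose by 0.82, the D cyclin gene Ccnd3 by 0.65, Cdk2 by 0.65, Cdk6 by 0.63 and Cdk4 by 0.26 (the last not under quantile normalization, limma adjusted p = 0.0705). Ccnd2 fell by 0.25 as deposited, but not under spike scaling (-0.09, limma adjusted p = 0.309), and Ccnd1 did not pass (-0.31). Cdk4 and Cdk6 encode the kinases that Ink4 proteins bind.

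Cyclins and the kinase of S phase and mitosis rose further. Ccnb2, a mitotic cyclin, rose by 3.33 (SE 0.12), and Ccna2, the S phase cyclin A2, by 3.29 (SE 0.11). Cdk1, the mitotic kinase, read 10.67, 10.68 and 11.15 in USP7-titled arrays and 7.89, 7.70 and 8.10 in control arrays, and so changed by 2.94 (SE 0.15). The germ cell cyclin gene Ccna1 did not pass (-0.09). All 5 genes that set the inhibitory phosphates on CDKs rose, against 16.9% of all genes. They were the activating phosphatases Cdc25b (1.73), Cdc25c (1.10) and Cdc25a (0.71), and the inhibitory kinases Wee1 (1.36) and Pkmyt1 (0.44). Of the CDK-activating kinase, its cyclin Ccnh rose by 0.44, with another probe set at -0.18, and Cdk7 (-0.13) and Mnat1 (-0.10) did not pass.

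Of 12 measured genes for the ubiquitin ligases that remove p21 and p27 protein, 6 were higher, 1 lower and 5 not called (median 0.12). Over all genes 16.9% were higher and 15.6% lower. The 6 were Cdc20, an activator of the anaphase-promoting complex (2.88, SE 0.11), Cks1b, the cofactor needed to recognise p27 (2.07, SE 0.08), Dtl, which targets p21 in S phase (1.71, SE 0.14), Skp2, the F-box protein that binds p27 (1.23, SE 0.12), Ubac1 (0.76) and Ddb1 (0.23, not past under quantile normalization, limma adjusted p = 0.0694). Skp2 had 5 other probe sets at 0.11 to 1.29, and the other Dtl probe set was at 0.50. The scaffold and adaptor genes Cul1 (-0.03), Skp1 (0.01), Cul4a (-0.22) and Cul4b (-0.04) and the ligase gene Rchy1 (-0.23) did not pass. Rnf123, part of a cytoplasmic ligase of p27, fell by 0.34 as deposited but not under spike scaling (-0.18, limma adjusted p = 0.135). These are transcripts, and p21 and p27 protein were not measured.

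**Figure D4:**
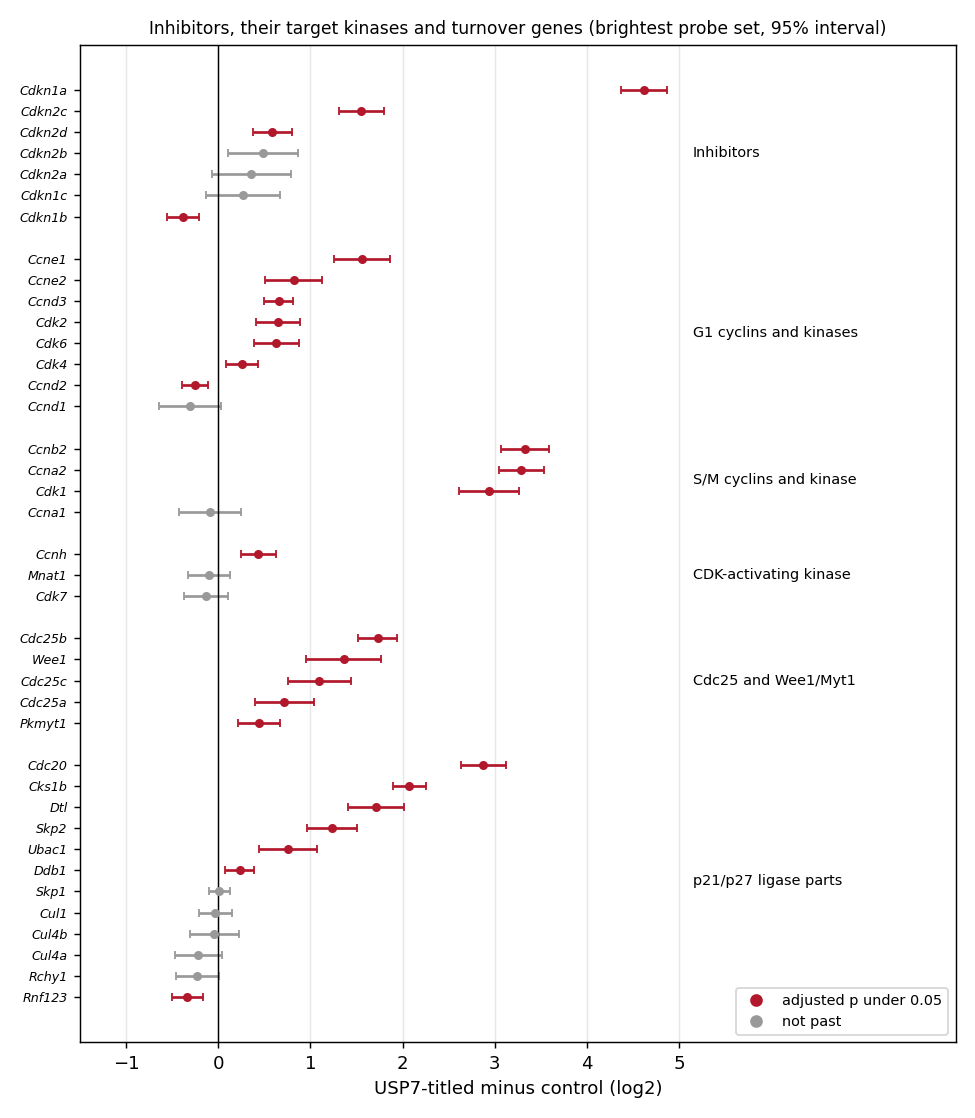
Change (USP7-titled minus control, log2) with 95% interval of the inhibitors and of the genes they act on or are removed by, brightest probe set each, grouped by role and coloured where the limma adjusted p was under 0.05. Cdkn1a at 4.62 stands above the largest change of the other groups, Ccnb2 at 3.33, and Cdkn1b lies below 0.

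Of 19 transcription factors known to act on the Cip/Kip genes, 1 was higher and 6 were lower (median -0.13), against 16.9% higher and 15.6% lower over all genes (median -0.05). Under spike scaling 3 were higher and 3 lower (median 0.03, against 0.11 over all genes), so the list has no direction that holds under both scalings. Myc, a repressor of Cdkn1a and driver of growth, fell by 0.77 (SE 0.05) to 11.37, 11.47 and 11.32 in USP7-titled arrays, against 12.20, 12.12 and 12.15 in control arrays. Gfi1, a repressor in lymphocytes, fell by 0.62, and Foxo1, a forkhead factor known to activate Cdkn1b in resting T cells, by 0.56 (SE 0.04). Sp1 fell by 0.34, but not under spike scaling (-0.18, limma adjusted p = 0.169). The p53 relatives Trp63 (-0.20) and Trp73 (-0.04) were dim and did not pass, and Trp53 itself was not analysed here.

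The control loop of p53 protein, which sits above Cdkn1a, gave 4 of 8 measured genes higher and 2 lower. Over all genes 16.9% were higher and 15.6% lower. Chek1 and Chek2, the checkpoint kinases that signal to p53, rose by 2.09 (SE 0.15) and 1.47 (SE 0.18), with a Chek1 probe set at -0.14. Mdm2, the ubiquitin ligase of p53 and itself a p53 target, rose by 0.41 (SE 0.07), and its relative Mdm4 fell by 0.58 (SE 0.08), beside the fall of Usp7. Ppm1d, a phosphatase induced by p53, rose by 0.48 (not under quantile normalization, limma adjusted p = 0.0518), and Atm (-0.33) and Atr (-0.19) did not pass.

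Among 15 factors known to act on the Ink4 genes 1 was higher and 5 were lower (median -0.01), against 16.9% higher and 15.6% lower over all genes. Under spike scaling 4 were higher and 3 lower (median 0.15, against 0.11 over all genes). Ezh2, the Polycomb methyltransferase that silences the Cdkn2a and Cdkn2b locus, rose by 1.14 (SE 0.10). Cbx7, a Polycomb reader of the same locus, fell by 0.84 (SE 0.11), Dmtf1, an activator of Arf, by 0.97 (SE 0.08), and Kmt2a, a histone methyltransferase, by 0.72 (SE 0.08). Bmi1, a Polycomb repressor of Cdkn2a, fell by 0.33 as deposited, but not under spike scaling (-0.17, limma adjusted p = 0.306).

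Of 12 partners or kinases of p21 and p27, 5 were higher and the others did not pass (median 0.16). Over all genes 16.9% were higher and 15.6% lower. Stmn1, a microtubule regulator bound by p27, rose by 1.49 (SE 0.06), Gadd45b by 0.88, Pcna, the replication clamp bound by p21, by 0.63 (SE 0.04), and Akt1, a kinase of both inhibitors, by 0.53. Pcna averaged 12.60 in USP7-titled arrays and 11.98 in control arrays. Proliferation markers rose in 10 of 11, with a median of 1.43, against the same 16.9% over all genes. They were led by Top2a (3.09, with another probe set at -0.24), Rrm2 (2.56), Mki67 (2.16) and Mcm5 (1.82). The part of this difference in cycling transcripts in the Cdkn1a and Cdkn2c changes was not tested.

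Markers of other cells were read in the same fit, and the myeloid list had the most calls. Of 20 myeloid markers 10 were higher, 1 lower and 9 did not pass, against 16.9% higher and 15.6% lower over all genes. Their mean log2 level was 7.71 to 7.85 in USP7-titled arrays and 6.67 to 6.87 in control arrays. C1qb rose by 2.86, Lyz1 by 2.48, with another probe set at 0.003, C1qc by 2.48 and S100a8 by 2.07. The 1 lower was Ctss (-0.48), and those that did not pass included Cd14 (0.10), Ccr2 (0.03) and Cx3cr1 (-0.26). The next lists are read against 16.9% higher and 15.6% lower over all genes. Of 9 B cell markers 1 was higher (Ms4a1, 0.998) and 1 lower (Cr2, -0.59), near those shares, with a mean level of 7.05 to 7.23 in USP7-titled and 7.12 to 7.15 in control arrays. Of 9 CD8 T and NK cell markers 2 were higher (Gzma, 3.21, and Nkg7, 2.76) and 1 lower (Prf1, -0.45), again near those shares. The median change was 0.02, and the 6 that did not pass included Cd8a (0.02), Klrd1 (0.19), Cd8b1 (-0.23) and Eomes (-0.52). The mean level, which includes Gzma and Nkg7, was 8.05 to 8.26 in USP7-titled and 7.54 to 7.70 in control arrays. Of 4 erythroid markers none passed by limma, also at an unadjusted p under 0.05, with Hba-a1 at -0.28 and Klf1 at -0.20, and a mean level of 6.44 to 6.67 in USP7-titled and 6.68 to 6.79 in control arrays. Of 8 Treg and T cell markers 6 were lower (median -0.15), which became 2 lower and 1 higher under spike scaling. Besides Foxp3 (-5.98), Ctla4 fell by 0.36, and Ikzf2 (-0.21) and Il2ra (-0.17) fell as deposited but not under spike scaling. The part of other cells in the rises of Cdkn1a and Cdkn2c was not tested.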

How the data were processed

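A MessageAmp Premier kit amplified and biotin-labelled the RNA, per the labels' protocols. The authors deposited log2 expression values, 1 per probe set and array, and they were used as deposited (range 2.21 to 14.47); no source used here states their summarisation or normalization. Array controls (64 of 22690 probe sets) were left out. Of the rest, 20380 had 1 annotated symbol, 691 several and 1555 none. Array medians were 7.91 to 7.96. Pearson's r was 0.992 to 0.993 among USP7-titled arrays, 0.995 to 0.996 among control arrays and 0.970 to 0.975 between groups.

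Groups came from titles. The comparison used limma 3.58.1 (R 4.3.3, lmFit, trended eBayes, two-sided), adjusted by Benjamini-Hochberg over 22626 probe sets at 0.05. The fit was run on simulated data with independent noise and only upward changes, in far fewer probe sets than were called here. That run therefore does not show how the fit performs on these arrays. The number of arrays limits precision. Context genes were read by their brightest probe set: per list the text names up to 4 passing genes, by size of change, or 2 by p if none passed. Other list members were named after their values were seen. For inhibitors passing with a change of at least 1, the 5 nearest profiles are named. Members and lists were chosen with earlier results of these data known. Alternatives covered normalization, filters, features, variance model, threshold, the replicate block and leaving out each array.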

Additional observations from a re-analysis of the deposited data

How the results depend on the processing

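Of 155 changes of inhibitor probe sets under other settings, 135 kept their direction and their side of the threshold, 12 no longer passed, 8 passed there only, and none turned sign. Some settings, among them the replicate block, the other thresholds and the brightest probe set per gene, leave the estimates as they were. No sign change was possible in those. The calls of Cdkn1a and Cdkn2c held in each. The count of lower inhibitor probe sets was 2 as reported. It was 1 without the variance trend (3184 of all probe sets higher and 3568 lower) and at a threshold of 0.01 (2563 higher and 2350 lower). It was also 1 with the brightest probe set per gene (2102 genes higher and 1976 lower) and with the mean of probe sets per gene (2076 higher and 2202 lower). It was 0 when a change of at least 1 was asked for (677 higher and 377 lower over all probe sets). It was also 0 by limma under scaling to 18 hybridization spike probe sets, where 1 was lower at an unadjusted p under 0.05. Spike scaling moved the median of all probe sets by 0.16, to 0.10; 5157 probe sets were then higher and 1938 lower, 72.7% higher, against 3673 and 3865, 48.7% higher, as deposited. Leaving out each array gave 1 to 2 lower and 4 to 6 higher inhibitor probe sets, with 6 higher without USP7-titled replicate 2. Over all 22626 probe sets these fits gave 2979 to 3628 higher and 2797 to 3728 lower. Without USP7-titled replicate 2 there were 3184 higher and 3367 lower, fewer than as deposited. The cause of these shifts was not tested, except that fewer features or a stricter threshold change counts by construction. Of 576 counts of context lists under other settings, 515 stayed within 1.5 times. With the replicate block 3637 probe sets were higher and 3858 lower, and no inhibitor changed its call (Cdkn2b adjusted p = 0.0697). The numbers were not taken to pair the samples: deviations of same-numbered arrays correlated at 0.07, -0.05 and 0.09, and 3 of 6 arrays matched best with their own number. Depth has no meaning for arrays, and without detection calls the dim Cdkn1c, Cdkn2a and Cdkn2b signals, and Cdkn1a in control arrays, cannot be set against background.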

Other observations

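p21 is also used as a marker of senescence, so a list of senescence genes was read in the same fit. Of 10 measured, 2 were higher, 1 lower and 7 did not pass, with a median change of -0.11. Because the list also holds Lmnb1, which is lost in senescence, these counts and the median have no single direction. Over all genes 16.9% were higher and 15.6% lower, so the count is near the background and is no result about the list. Lmnb1, the nuclear lamin whose loss marks senescent cells, rose by 1.95 (SE 0.08) to 11.16, 11.12 and 11.10 in USP7-titled arrays, against 9.29, 9.14 and 9.09 in control arrays. Hmgb2, a chromatin protein of cycling cells, rose by 1.33 (SE 0.06) and was the only other gene of the list called higher. The chemokine Cxcl2 was dim and fell by 0.78 (SE 0.22, limma adjusted p = 0.0178). Il6 (-0.02), Ccl2 (-0.19) and Mmp9 (-0.27) did not pass; these 3 were chosen after their values were seen.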
